A study of Homo sapiens with 8 samples.

Results

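The sortilin family is a group of transmembrane receptors that share a Vps10p domain, the part that binds ligands outside the cell or inside the Golgi lumen. The genes examined were its 5 human members, SORT1, SORL1, SORCS1, SORCS2 and SORCS3, together with NGFR, which encodes the p75 neurotrophin receptor, a signalling partner of sortilin and SorCS2. They were found by gene symbol, and all 6 had 1 row among the 18508 genes of the table. The set was chosen with the SAHA results already known, because SORT1 had been called higher and SORCS2 lower. Every comparison of these genes that holds the SAHA arrays is therefore a description, with no p-value, and EtOH against untreated is the comparison in which they were tested.

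ASC52telo cells (ASC52) are human adipose derived stem cells (ADSCs) immortalized with hTERT, and all arrays came from this 1 line. The cells were deprived of serum for 24 h in all 3 groups. The SAHA group then received SAHA (1000 nM, 72 h), an inhibitor of histone deacetylases, the EtOH group its solvent, and the untreated group neither. Fresh medium was added for 24 h afterwards, and RNA was hybridized to Human Clariom S arrays, giving 3 SAHA, 2 EtOH and 3 untreated arrays. The authors had removed EtOH replicate 2, whose signal was weak.

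Sortilin family receptors sort proteins between the trans-Golgi network, the endosomes and the cell surface. Sortilin carries cargo such as prosaposin, progranulin and lipoprotein lipase, and SORLA, the product of SORL1, sorts the amyloid precursor protein. At the cell surface, sortilin or SorCS2 joined to p75 forms a receptor for proneurotrophins, the uncleaved precursors of the neurotrophins, whereas mature neurotrophins bind the Trk receptors. In adipocytes, sortilin is also a component of the vesicles that store the glucose transporter GLUT4, and p75, as CD271, is a surface marker used to isolate mesenchymal stem cells.

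The deposited values are log2 expression on a scale with an unknown offset, from -0.83 to 9.96, and the median of an array was 0.26 to 0.33. The values of 1 gene can be set side by side over the arrays, whereas those of different genes cannot. In all 18508 genes the mean over the arrays of replicate 1, that of replicate 2 and that of replicate 3 were equal within 1e-10, so differences between the replicate numbers had been removed before deposit. Replicate 2 holds only 1 SAHA and 1 untreated array, so these lie equally far above and below the mean of each gene. The labels give the replicates 1, 2 and 3 of every group the marks p6, p10 and p16, without saying what the marks stand for. After such centring the fit without a replicate block counts 6 residual degrees of freedom for SAHA against the combined controls where 4 remain, so its standard errors, intervals and adjusted p-values are too small, and values with the block are given where they change a call or an interval. The 7 mesenchymal stem cell markers, such as CD44 and the CD73 gene NT5E, ranged from 3.77 to 8.63 and were above the array medians on all arrays. Markers of blood cells, endothelium, adipocytes, neurons and Schwann cells ranged from -0.53 to 1.42. Both ranges, and the place of a gene against the array medians, say little of the cells, since levels of different genes are not on 1 scale. The mean of the 5 blood cell markers was lower on the SAHA arrays, from -0.02 to 0.09 against 0.09 to 0.21 in the controls, and the means of the other lists overlapped. What these marker shifts have to do with the results below was not tested. Differences are log2 differences from limma, and a gene was called at a Benjamini-Hochberg adjusted p under 0.05 over all genes and a fold of at least 1.5.

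SORT1 lies on chromosome 1 at 109309575 to 109397918 (GRCh38.p14, RefSeq). Its outermost RefSeq start is shown because SORT1 is the member that was higher with SAHA. The 250 bases before that start, chr1:109397919-109398168 on the minus strand, are given 5′ to 3′. Capitals mark the GC boxes (GGGCGG) and the CCAAT boxes (CCAAT), searched on both strands, which do not overlap each other here.
SORT1: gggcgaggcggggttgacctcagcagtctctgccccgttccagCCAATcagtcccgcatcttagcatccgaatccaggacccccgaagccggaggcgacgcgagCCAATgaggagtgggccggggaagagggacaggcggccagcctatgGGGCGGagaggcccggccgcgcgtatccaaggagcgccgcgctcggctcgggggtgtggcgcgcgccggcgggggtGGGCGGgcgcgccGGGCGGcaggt
This stretch holds 3 GC boxes, 2 CCAAT boxes and 32 CpG dinucleotides at a GC content of 74%. Among 35116 RefSeq windows of the same length, 42.6% hold a GC box and 32% a CCAAT box, and the median GC content was 58%. The other RefSeq start of SORT1 lies inside the gene, and its window, chr1:109393136-109393385, holds neither motif at a GC content of 42.8%. The matches describe the letters only, since no binding or chromatin was measured on these arrays. Windows were also listed for SORL1, SORCS1 and SORCS3, with 2, 1 and 1 GC boxes and 0 CCAAT boxes, and SORCS2 and NGFR were not among the listed genes.

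SORT1, which encodes the sorting receptor sortilin, was higher in SAHA treated ADSCs. Its log2 values were 1.98, 1.84 and 2.11 on SAHA replicates 1, 2 and 3, 0.83 and 0.95 on EtOH replicates 1 and 3, and 1.12, 0.78 and 0.87 on untreated replicates 1, 2 and 3. All 3 SAHA arrays lay above all 5 control arrays, and the EtOH arrays lay within the range of the untreated ones. The mean was 1.97 ± 0.14 (SD, n = 3) with SAHA and 0.91 ± 0.13 (SD, n = 5) over both kinds of control, a log2 difference of 1.06 (standard error 0.11), or 2.09-fold. By size this was number 39 of the 18508 differences, and number 29 among those towards higher values. The difference was 1.09 (standard error 0.14) with EtOH alone as control and 1.05 (standard error 0.12) with untreated alone, so that both controls gave nearly the same value. These comparisons share the SAHA arrays.

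SORCS2, which encodes a receptor that binds proneurotrophins together with p75, was lower in the SAHA group. Its log2 values were 0.70, 0.76 and 0.45 on SAHA replicates 1, 2 and 3, 1.74 and 1.68 on EtOH replicates 1 and 3, and 1.66, 1.98 and 1.97 on untreated replicates 1, 2 and 3. All SAHA arrays lay below all controls, with a gap between the highest SAHA array and the lowest control array that is wider than the whole range of the controls. The SAHA mean was 0.64 ± 0.16 (SD, n = 3) against 1.80 ± 0.16 (SD, n = 5), a log2 difference of -1.17 (standard error 0.12), or 2.24-fold lower. This was number 27 by size and number 7 among differences towards lower values. With EtOH alone as control the difference was -1.07 (standard error 0.14) and with untreated alone -1.23 (standard error 0.13). SORCS2 lies on chromosome 4 at 7192538 to 7742827.

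NGFR, the gene of p75, was not separated between the groups. Its log2 values were 0.77, 1.12 and 0.75 on SAHA replicates 1, 2 and 3, 0.88 and 0.89 on EtOH replicates 1 and 3, and 0.83, 0.53 and 0.82 on untreated replicates 1, 2 and 3. Both arrays of replicate 2 stood apart, the SAHA one as the highest and the untreated one as the lowest of all 8, as a pair of arrays centred on the gene mean must lie on opposite sides of it. The other 6 arrays lay between 0.75 and 0.89. The log2 difference from the combined controls was 0.09 (standard error 0.12). NGFR lies on chromosome 17 at 49495293 to 49515008.

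SORL1, which encodes SORLA, lies on chromosome 11 at 121452314 to 121633763 and was under the array medians on all arrays. Its log2 values were -0.19, -0.17 and -0.20 with SAHA, -0.18 and -0.06 with EtOH, and -0.24, -0.23 and -0.35 in untreated cells. The SAHA arrays lay inside the range of the controls and close to each other, at -0.19 ± 0.02 (SD, n = 3). The log2 difference from the combined controls was 0.02 (standard error 0.09), and it was -0.07 against EtOH alone and 0.09 against untreated alone.

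SORCS1 and SORCS3 encode Vps10p receptors best known from neurons. They lie on chromosome 10 at 106573663 to 107181138 and at 104641290 to 105265242, and both were under the array medians. SORCS1 was at 0.20, -0.15 and 0.13 on SAHA replicates 1, 2 and 3, at 0.03 and -0.08 with EtOH, and at -0.22, 0.15 and -0.03 on untreated replicates 1, 2 and 3. SORCS3 was at -0.04, -0.36 and -0.17 on SAHA replicates 1, 2 and 3, at -0.10 and -0.22 with EtOH, and at -0.41, -0.01 and -0.17 on untreated replicates 1, 2 and 3. In both genes the groups overlapped, and the spread between arrays of 1 group was larger than the difference between groups. The log2 difference from the combined controls was 0.09 (standard error 0.11) for SORCS1 and -0.01 (standard error 0.11) for SORCS3. How far such low values follow the RNA of these genes was not tested.

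**Figure D1:**
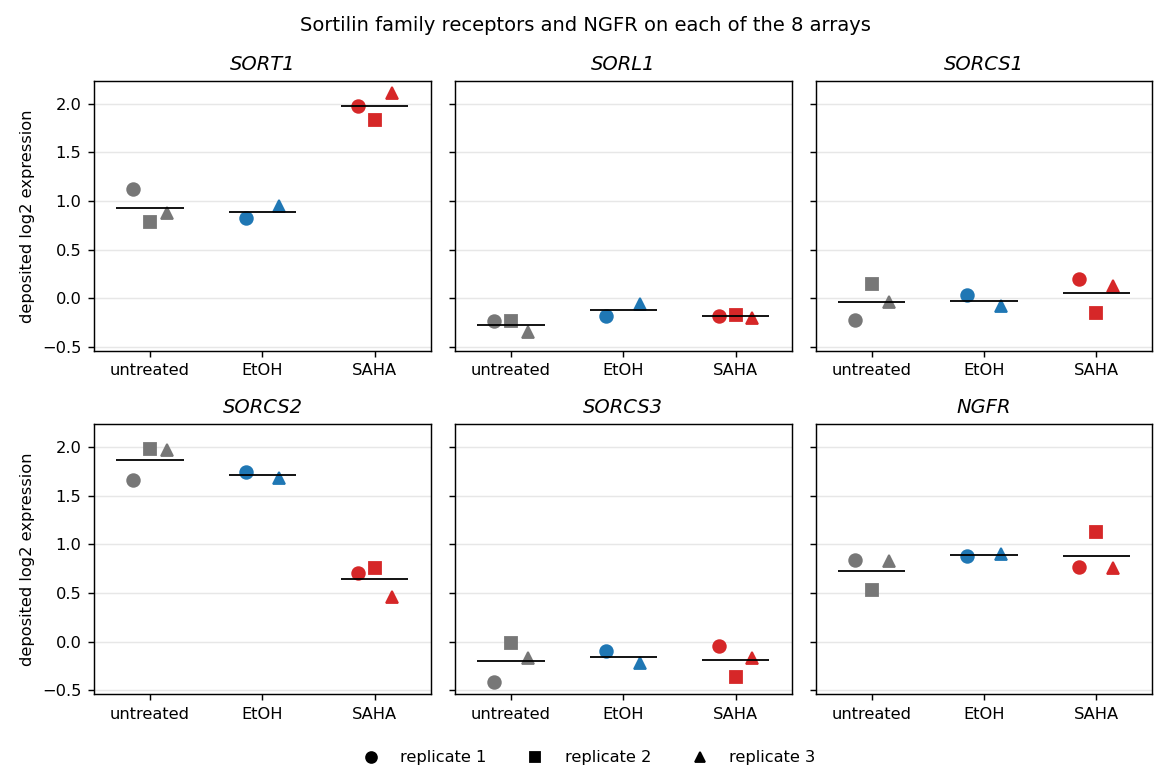
Deposited log2 expression (y axis) of the 6 genes in the untreated, EtOH and SAHA groups (x axis); points are single arrays, shaped by replicate number, and bars mark group means. SAHA points of SORT1, from 1.84 to 2.11, lie above all control points, those of SORCS2, from 0.45 to 0.76, lie below them, and the groups overlap in the other 4 genes.

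Of the 6 genes, 2 passed both thresholds in SAHA against the combined controls, where 0.735% of all genes did, 0.438% as higher and 0.297% as lower. The set was built around these 2 genes, so nothing is read from this share. SAHA arrays lay above all controls in SORT1, as in 4.21% of all genes, and below them in SORCS2, as in 6.25%, which makes 10.5% without overlap. The median log2 difference of the 6 genes was 0.06, against -0.03 over all genes. With the replicate number as a block, which called 50 genes of the table in place of 136, the log2 difference was 1.09 (standard error 0.14) for SORT1 and -1.19 (standard error 0.14) for SORCS2. The calls come from the arrays that chose the genes and are no further support. They were lost for both genes without all arrays of replicate 1 or of replicate 3, and for SORCS2 by the methods' t-test. Against EtOH alone 0.103% of all genes were called (0.0864% higher and 0.0162% lower), and against untreated alone 0.789% (0.454% higher and 0.335% lower), SORT1 and SORCS2 among them in both.

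Within each replicate number, the SAHA array was set against the control arrays of that number. SORT1 was higher by 1.01, 1.05 and 1.20 on the log2 scale in replicates 1, 2 and 3. For SORCS2 the differences were -0.99, -1.22 and -1.37. These arrays chose both genes, so their like signs in 3 of 3 replicates are a description. In SORCS1, SORCS3 and NGFR replicate 2 had the opposite sign to replicate 1. In NGFR the difference was 0.59 in replicate 2, against -0.09 and -0.10 in replicates 1 and 3. In SORCS1 it was -0.30 in replicate 2, against 0.29 and 0.18, and in SORCS3 it was -0.35, against 0.21 and 0.03. Replicate 2 has 1 control array, where the others have 2. In SORL1 the 3 differences lay between -0.00061 and 0.06.

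**Figure D2:**
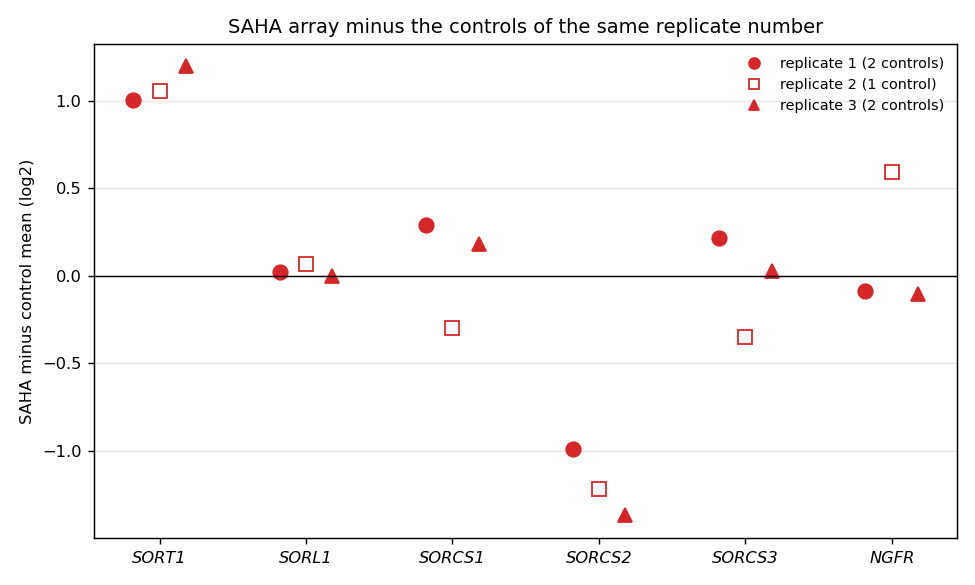
Log2 difference (y axis) between the SAHA array and the mean of the control arrays of the same replicate number for each of the 6 genes (x axis); the open square, replicate 2, rests on 1 control array. The 3 points of SORT1 lie between 1.01 and 1.20 and those of SORCS2 between -1.37 and -0.99, whereas replicate 2 lies on the other side of 0 from replicates 1 and 3 in SORCS1, SORCS3 and NGFR.

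The comparison of EtOH with untreated cells asks whether the solvent alone moved these genes. It is not independent of the SAHA arrays, since centring sets untreated replicate 2 opposite to SAHA replicate 2 and all arrays share in the estimate of the spread. None of the 6 genes passed the threshold. Both EtOH arrays lay above all untreated arrays in SORL1 and NGFR, and the groups overlapped in SORT1, SORCS1, SORCS2 and SORCS3. The share of all genes that separate in this way, with 2 arrays against 3, was not counted, so nothing is read from it. SORCS2 had a log2 difference of -0.16 (95% interval -0.47 to 0.16, adjusted p = 0.74 from limma) and SORT1 one of -0.04 (95% interval -0.34 to 0.27, adjusted p = 0.95). NGFR was at 0.16 (95% interval -0.18 to 0.49, adjusted p = 0.76) and SORL1 at 0.15 (95% interval -0.08 to 0.38, adjusted p = 0.65). SORCS1 was at 0.01 (adjusted p = 0.99) and SORCS3 at 0.04 (adjusted p = 0.95), with intervals that reached from -0.32 to 0.34 and from -0.29 to 0.37. No gene of the table was called in this comparison (0% of 18508 by limma, with 1804 at an unadjusted p under 0.05). With the replicate block the intervals were wider, from -0.53 to 0.31 for SORT1, from -0.53 to 0.34 for SORCS2 and from -0.24 to 0.57 for SORL1. They reached from -0.30 to 0.63 for NGFR, from -0.46 to 0.47 for SORCS1 and from -0.42 to 0.50 for SORCS3. The adjusted p with the block was 0.9998 from limma for each of the 6 genes. Without untreated replicate 2 the difference of NGFR was 0.056. The number of arrays limits these intervals, and they do not show that the groups were alike.

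**Figure D3:**
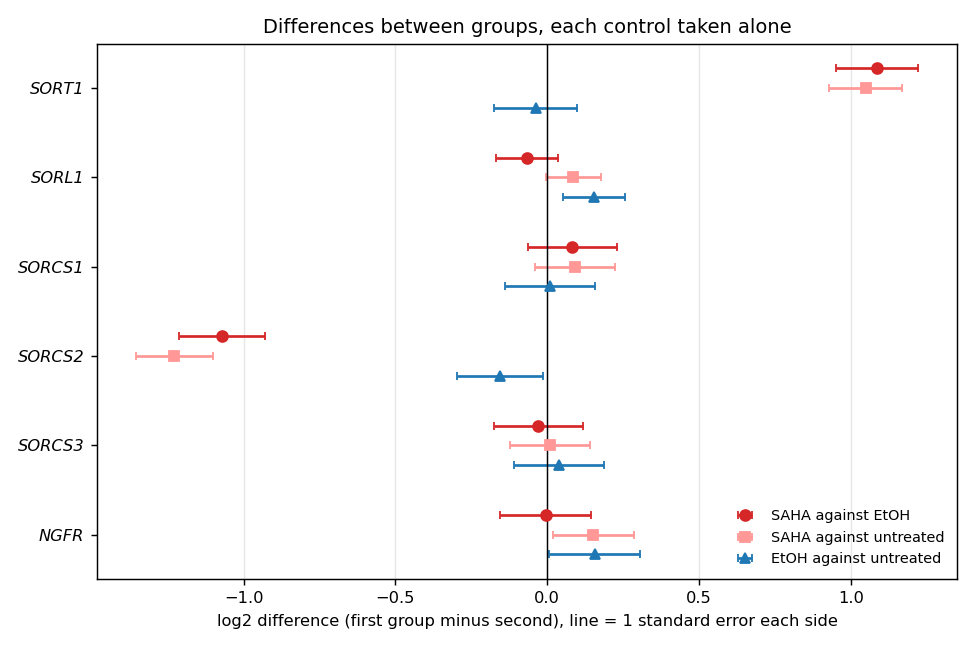
Log2 difference (x axis) of the 6 genes (y axis) for SAHA against EtOH, SAHA against untreated and EtOH against untreated; points are limma estimates with lines of ± 1 standard error. Both SAHA comparisons lie near 1 for SORT1, at 1.09 and 1.05, and at -1.07 and -1.23 for SORCS2, and all other estimates lie between -0.16 and 0.16.

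The genes whose values ran most like those of SORT1 over the 8 arrays, among 1593 genes that spanned at least 1 log2 unit, were ADGRL2 (Pearson r = 0.995), MGAT5 (0.986), LHFPL2 (0.981), CCND1 (0.980) and MOXD1 (0.979). For SORCS2 they were DIAPH3 (r = 0.996), MFAP4 (0.981), FBXL7 (0.971), BGN (0.967) and PSMA5 (0.964). SORT1 and SORCS2 themselves ran opposite to each other (r = -0.989). These correlations are a description of 8 arrays that share the same groups and the same centring, and no p-value is attached to them.

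The genes around these receptors were grouped by role, and 92 of 96 listed genes had a row. None of the 92 passed both thresholds in SAHA against the combined controls (limma, against 0.735% of all genes), nor did any by the methods' t-test. At an unadjusted p under 0.05 there were 23, or 25%, against 15.4% of all genes. The SAHA arrays lay above all controls in 8 of the 92 and below them in 4, together 13%, against 10.5% of all genes. The median log2 difference was -0.01, with 45 genes above 0 and 47 below. The adjusted p-values given for these genes are from the fit without the replicate block, and with it the lowest of the 92 was that of PLAT, at 0.11.

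Among 15 genes of ligands and cargo, 0 passed and 5 were under an unadjusted p of 0.05, with a median log2 difference of 0.06. PSAP, which encodes prosaposin, the precursor of lysosomal saposins, was at 5.74, 5.57 and 5.80 with SAHA, 5.43 and 5.08 with EtOH, and 5.16, 5.32 and 5.45 in untreated cells. All SAHA values of PSAP lay above the controls, and its log2 difference was 0.42 (standard error 0.11, adjusted p = 0.12 from limma).
Of the neurotrophin genes, BDNF, NTF3 and NTF4 are given for their role as ligands and were picked after their values were seen. BDNF was at 0.83, 0.65 and 0.73 with SAHA against 0.32 to 0.58 in the controls, a log2 difference of 0.26 (standard error 0.10, adjusted p = 0.23 from limma). NTF4 was at 0.53, 0.44 and 0.62 against 0.13 to 0.37, a difference of 0.30 (standard error 0.09, adjusted p = 0.16). The SAHA arrays of BDNF and NTF4 lay above all controls, by values that did not pass the threshold. NTF3, which encodes neurotrophin-3, had overlapping groups and a difference of 0.17 (standard error 0.16, adjusted p = 0.65).

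Among 8 genes of neurotrophin and neurotensin receptors and co-receptors 0 passed and 1 was under an unadjusted p of 0.05, and 7 of the 8 had a negative difference, with a median of -0.13. The largest was that of NTRK3, the gene of the neurotrophin-3 receptor TrkC, at -0.29 (standard error 0.16, adjusted p = 0.43 from limma). Among 11 genes of proteins that act with p75 inside the cell 0 passed and 2 were under an unadjusted p of 0.05. MAGED1, which encodes the p75 interactor NRAGE, was at 4.35, 3.73 and 4.44 on SAHA replicates 1, 2 and 3 against 3.20 to 3.78 in the controls. SAHA replicate 2 lay inside the control range and the other SAHA arrays above it, for a log2 difference of 0.67 (standard error 0.18, adjusted p = 0.12), and without that array MAGED1 passed at 0.89 (adjusted p = 0.046; over 20 alternatives, 0.046 to 0.45). BEX1, the gene of another p75 interactor, was at -0.38 (standard error 0.15, adjusted p = 0.27).

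The retromer is a coat that returns sorting receptors, sortilin among them, from endosomes to the Golgi, and sorting nexins help to form its tubules. The list of 12 genes for this coat and the sorting nexins also held VPS26C and RAB7A, which encode neither. Of the 12 genes 0 passed both thresholds and 5 were under an unadjusted p of 0.05, with a median log2 difference of -0.01. SNX5, the gene of a sorting nexin of this coat, was at 3.06, 3.13 and 3.22 with SAHA, at 3.68 and 3.55 with EtOH, and at 3.58, 3.75 and 3.54 in untreated cells. Its SAHA arrays lay below all controls, and at a log2 difference of -0.48 (standard error 0.09, adjusted p = 0.041 from limma) it passed the p threshold and not the fold of 1.5. With the replicate block its adjusted p was 0.24, and over the alternatives it ran from 0.028 to 0.27. VPS26A, which encodes a core subunit of retromer, was at 2.58, 3.11 and 3.30 with SAHA against 3.37 to 4.02 in the controls, a log2 difference of -0.74 (standard error 0.18) that missed the p threshold, at 0.087. VPS35, the gene of the subunit that binds VPS26A, was picked after its values were seen, at 2.31, 2.21 and 2.27 with SAHA against 2.40 to 2.61. Its difference was -0.24 (standard error 0.09, adjusted p = 0.24). SNX5, VPS26A and VPS35 were the 3 genes of this list with all SAHA arrays below all controls, as in 6.25% of all genes. RAB7A, the gene of a late endosomal GTPase, also picked after its values were seen, was the 1 gene with them above, as in 4.21%. Its difference was 0.34 (adjusted p = 0.19 from limma). Together this was 33.3% of the 12 genes, against 10.5% of all genes. The list is small and was chosen with earlier results known, so nothing is read from this share.

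Among 18 genes of Golgi and clathrin adaptors, which gather sorting receptors into coated vesicles, 0 passed and 5 were under an unadjusted p of 0.05. AP2A2 and AP2M1, which encode subunits of the endocytic adaptor AP-2, went in opposite directions, at -0.47 (standard error 0.15, adjusted p = 0.17 from limma) and 0.42 (standard error 0.19, adjusted p = 0.31). Untreated replicate 1 stood apart in AP2M1, at 3.56 where the other controls lay between 4.14 and 4.18. The AP2M1 difference was 0.30 without that array and 0.20 without SAHA replicate 1. Without all arrays of replicate 1 it was 0.08, the lowest of the alternatives.

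Of 13 genes for the cleavage of proneurotrophins and of receptor ectodomains, 0 passed and 5 were under an unadjusted p of 0.05. PLAT had the largest difference of the 92 genes. It encodes tissue plasminogen activator, which makes plasmin, a protease that cleaves proBDNF. PLAT was at 2.35, 2.83 and 2.80 on SAHA replicates 1, 2 and 3, at 1.63 and 1.18 with EtOH, and at 2.0, 1.15 and 2.0 in untreated cells. All SAHA arrays lay above all controls, whose spread was wide, at 1.59 ± 0.41 (SD, n = 5). The log2 difference was 1.07 (standard error 0.22, adjusted p = 0.051 from limma without the replicate block) and missed the p threshold. With the block the adjusted p was higher, as given above. It passed in 6 of 20 alternatives, and the adjusted p ran from 0.034 to 0.23 over them. PSEN2, the gene of a catalytic subunit of gamma-secretase, was at -0.47 (standard error 0.17, adjusted p = 0.23).

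Among 7 other sorting receptors and 8 genes of the GLUT4 storage vesicle 0 passed, and 0 were under an unadjusted p of 0.05. LRP2, the gene of megalin, was at -0.23 (standard error 0.15) and M6PR, the gene of a mannose 6-phosphate receptor, at -0.15 (standard error 0.10), with adjusted p of 0.51 and 0.55 from limma. LNPEP, which encodes an aminopeptidase that travels with GLUT4, was at 0.32 (standard error 0.21) and STX6, the gene of a Golgi syntaxin, at -0.27 (standard error 0.17), both at an adjusted p of 0.50.

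**Figure D4:**
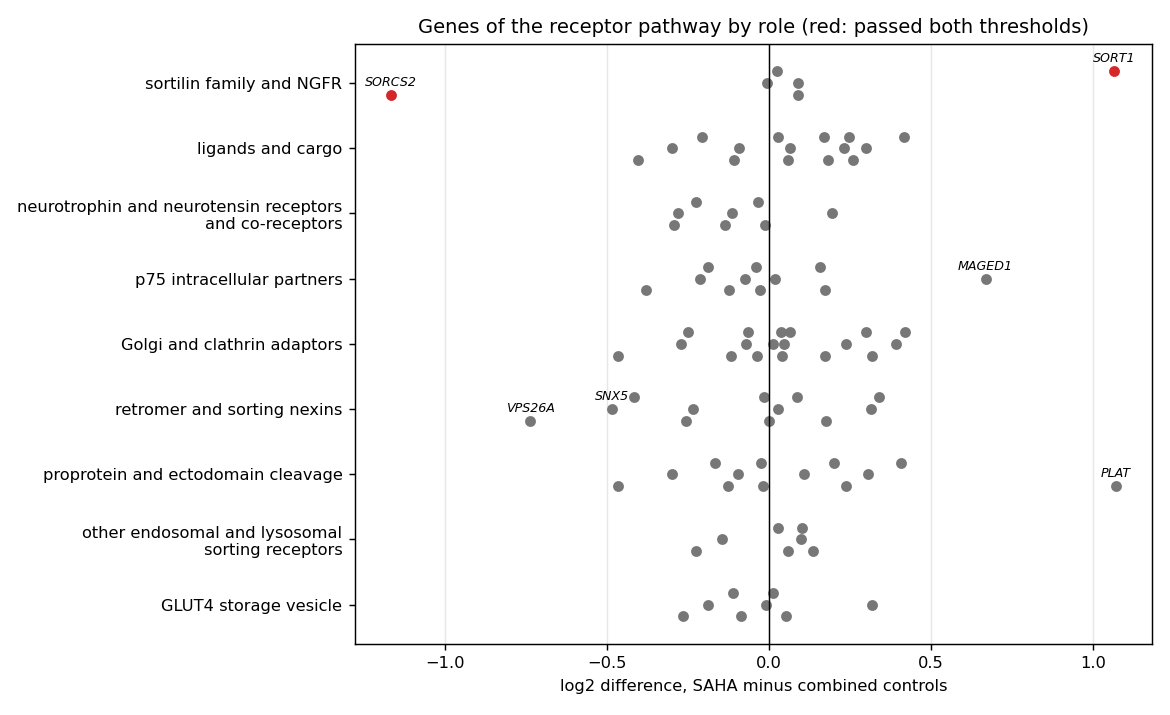
Log2 difference between SAHA and the combined controls (x axis) of the 6 receptor genes and of 92 genes around them, grouped by role (y axis); each point is 1 gene and its height within a row has no meaning, and red marks the genes called. SORT1 at 1.06 and SORCS2 at -1.17 are the red points, and PLAT at 1.07, VPS26A at -0.74 and MAGED1 at 0.67 lie farthest out among the others.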

How the data were processed

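Expression was measured on Human Clariom S arrays. The authors used RMA in the oligo package, after removing 1 dim EtOH array, and deposited log2 values with 1 row per gene symbol. Centring by replicate number was found in the values and is not named in the methods. All 18508 genes on 8 arrays entered the fits without a filter (limma 3.58.1, R 4.3.3). SAHA was compared with EtOH and untreated combined, as in the study's methods, and a fit with 3 groups gave the other contrasts. Adjusted p-values are from limma over all genes, with a fold threshold of 1.5. The fit was tested on simulated data. The members, role lists and markers were chosen with earlier results of these data known. The rule for named genes took the 6 members, called genes of the role lists, the 2 largest differences in each list, and the 5 genes most correlated with SORT1 and with SORCS2. CLU, IRAK1, PCSK6 and 1 further listed gene were not analysed here, and values of some other listed genes are not reported here. The labels call the replicates biological, and the study's statistics section describes the replicates of all its experiments as independent and biological. That the arrays came from separate cultures is not stated, so p-values measure only the spread between these arrays. The shared replicate numbers were left out of the fit and tried as a block; centring prevents a test of whether they pair the arrays. The other alternatives were quantile normalization, median centring, a filter on the dimmest genes, an intensity trend, either control alone, equal weight of the controls, leaving out each array, and the unpaired t-test of the methods. The study names that t-test in its general statistics section and limma for the arrays. Leaving out all arrays of 1 replicate number was added after seeing the data.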

Additional observations from a re-analysis of the deposited data

Results flagged for a closer look

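Among 22 genes tested, control arrays stood apart in 2, where chance flags about 1 group in 20. In NGFR untreated replicate 2 was at 0.53, against 0.82 to 0.89 on the other 4 control arrays. In AP2M1 untreated replicate 1 was at 3.56, against 4.14 to 4.18. That rate assumes independent arrays, whereas centring ties the arrays of a replicate number to each other, so the value of NGFR on untreated replicate 2 mirrors that of SAHA replicate 2, at 1.12.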

How the results depend on the processing

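With the replicate block 50 genes were called in SAHA against the combined controls, 8 against EtOH and 25 against untreated, in place of 136, 19 and 146, and the block changed no call of a receptor gene. Against the combined controls 9 were called by the methods' t-test, and 38 where EtOH stood alone as control, and 8 genes were called against EtOH with the intensity trend. Leaving out arrays gave 0 to 129 genes against the combined controls, 0 to 19 against EtOH and 30 to 102 against untreated. Of single arrays, SAHA replicate 3 (30), SAHA replicate 1 (49) and untreated replicate 2 (71) moved the first count most. Against EtOH 0 were called without SAHA replicate 1, EtOH replicate 1 or EtOH replicate 3, 3 without SAHA replicate 3 and 5 without untreated replicate 3. Against untreated 30 to 55 were called without any one SAHA or untreated array. SORT1 and SORCS2 were the genes of the set called, 2 in all, with every single array left out, but 0 were called without all arrays of replicate 1 or of replicate 3, where limma called 0 genes of the table. By the methods' t-test 1 of them, SORT1, was called. These arrays chose both genes, so the calls that held are a description and no further support. The log2 difference of SORT1 ran from 1.0 to 1.13 over 19 alternatives and that of SORCS2 from -1.27 to -1.06. NGFR ran from -0.10, without all arrays of replicate 2, to 0.20. SORL1 was at -0.067 with EtOH arrays only. In EtOH against untreated the sign turned without untreated replicate 1 or EtOH replicate 1 for SORT1 (-0.11 to 0.060 with single arrays left out), SORCS1 (-0.085 to 0.10) and SORCS3 (-0.068 to 0.13), all short of the threshold. In the role lists 1 gene passed with quantile normalization, with median centring, with the dimmest genes left out and with EtOH arrays only (PLAT in each). With untreated arrays only 1 gene passed, which was neither PLAT nor MAGED1. With single arrays left out 0 to 1 passed, PLAT without untreated replicate 1 or 3 and MAGED1 without SAHA replicate 2. The filter left 12339 genes, without SORL1, SORCS1 and SORCS3.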
